A study of Mus musculus with 9 samples.

Results

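2900060B14Rik is a mouse gene that RefSeq classes as a long noncoding RNA (lncRNA). It was followed across 9 arrays of TAMH cells, a hepatocyte line derived from mice that carry a transforming growth factor alpha transgene. The gene was chosen by its symbol in the platform annotation, with its response to both herbicides already known, so its own differences from the controls are given as a description and with no test. One feature carried this symbol, among 23521 features with 1 gene symbol and 34472 features in all. Cells received diquat at 18 µM (3 arrays), paraquat at 126 µM (3 arrays) or medium alone (3 arrays), and each group was harvested at 9 h. All 3 groups were grown in the same dexamethasone-containing medium. The cells are 1 line in culture, without the other cells of a liver, and the labels do not say whether the 3 dishes of a treatment were separate cultures, so any p-value reflects spread among these arrays only, which could be technical.

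Diquat and paraquat are bipyridylium herbicides that accept an electron from cellular reductases and pass it to oxygen, which yields superoxide in repeated cycles. Long noncoding RNAs are transcripts with no recognised protein product. Some act in the nucleus on chromatin or splicing, others are by-products or hosts of small RNAs, and a function cannot be read from the class alone. The name 2900060B14Rik is a RIKEN cDNA clone number, and no function is assigned to it in the annotation used here.

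In the RefSeq annotation of GRCm38.p6 the gene lies on the minus strand of chromosome 1 and is 597 bases long. Its span falls inside that of Clasp1, which encodes a protein that binds the plus ends of microtubules. The tables used give spans without exons, so whether it overlaps an exon or an intron of Clasp1 is not given here. The window from 250 bases before to 50 bases after its annotated start is shown because it holds the gene's own start inside Clasp1. It is taken from RefSeq (GRCm38.p6, chr1:118459216-118459515, minus strand), runs 5′ to 3′ and has the 3 motif matches found in it in capitals.
2900060B14Rik: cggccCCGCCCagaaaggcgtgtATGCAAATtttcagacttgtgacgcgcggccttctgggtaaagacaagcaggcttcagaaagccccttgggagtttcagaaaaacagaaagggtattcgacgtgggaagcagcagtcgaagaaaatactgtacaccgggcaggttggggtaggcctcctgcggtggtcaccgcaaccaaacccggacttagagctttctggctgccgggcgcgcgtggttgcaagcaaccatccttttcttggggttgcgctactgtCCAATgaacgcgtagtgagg

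Of the 300 bases, 56% were G or C. The motifs looked for, on both strands, were AP-1 (TGANTCA), the antioxidant response element (TGACNNNGC), the C/EBP-ATF element (TGATGNAA), the cyclic AMP response element (TGACGTCA), the E-box (CACGTG), the TATA box (TATAAA), the CCAAT box (CCAAT) and the GC box (GGGCGG). The first capitals mark a GC box 245 bases before the start, read on the opposite strand, a motif held by 35.9% of the 32544 promoter windows of the same length. The last capitals mark a CCAAT box that begins 30 bases after the start, held by 37.4% of windows. The other 6 motifs had no match in this window, and they occurred in 7.79%, 12.4%, 3.91%, 1.80%, 7.17% and 13.6% of all windows in the order given above. The middle capitals mark the octamer ATGCAAAT, 227 bases before the start. The octamer is the binding sequence of POU-domain factors and is known from the upstream elements of vertebrate small nuclear RNA genes and from immunoglobulin promoters. It was searched after the sequence had been seen, and 570 of the 32544 windows held it, or 1.75%. No 2 of the 3 matches overlap, and a match is only a string of letters.

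Before the results, the arrays were compared with one another. Array medians lay between 5.95 and 6.04 on the log2 scale, no 2 arrays held identical values, and the root-mean-square difference between an array and the mean of the others in its group was 0.0721 to 0.116 for 8 arrays and 0.136 for diquat replicate 3, the highest of the 9. Of 10 hepatocyte markers 9 were measured, and their mean level was 10.58 to 10.64 with diquat, 10.59 to 10.67 with paraquat and 10.66 to 10.72 in medium. Albumin (Alb) stood at 12.73 in diquat cells, 12.73 in paraquat cells and 12.73 in medium, close to the table's highest value of 13.19. Ttr (transthyretin) was lower by limma's adjusted p with diquat (log2 difference -0.34) and paraquat (-0.32), and Apob (apolipoprotein B) with diquat (-0.19). Endothelial markers averaged 5.67 to 5.77 with diquat, 5.78 to 5.85 with paraquat and 5.78 to 5.85 in medium, near the array medians. Stellate cell markers averaged 6.50 to 6.62 with diquat, 6.58 to 6.62 with paraquat and 6.59 to 6.67 in medium. The brightest of them, Col1a1, stood well above these averages, at 8.97 with diquat, 9.03 with paraquat and 9.18 in medium. Macrophage markers averaged 6.19 to 6.30 with diquat, 6.28 to 6.34 with paraquat and 6.19 to 6.27 in medium. The brightest of them, Cd68, stood at 8.02 with diquat, 7.98 with paraquat and 7.62 in medium, and was higher with diquat (0.40). The other macrophage markers did not pass with diquat: Csf1r -0.13, Ptprc -0.10, Clec4f -0.06 and Adgre1 0.02. The 4 measured cholangiocyte markers averaged 8.78 to 8.79 with diquat, 8.83 to 8.85 with paraquat and 8.77 to 8.81 in medium. Among them Sox9 was higher with diquat (0.45) and paraquat (0.39), and Krt7 (-0.29) and Krt19 (-0.16) were lower with diquat. Their part in the results on 2900060B14Rik was not tested. In bulk RNA, fewer cells of a type and less RNA per cell cannot be told apart.

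2900060B14Rik was far brighter in the treated cells than in medium, in all 6 treated arrays. Its RMA value, a log2 measure of probe brightness, was 10.37, 10.56 and 10.62 in the 3 diquat arrays. In the 3 paraquat arrays it was 10.21, 10.21 and 10.12. In the 3 medium arrays it was 7.91, 7.98 and 7.91. The 3 groups did not overlap: every diquat array lay above every paraquat array, and every paraquat array above every medium array.

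The group means were 10.52 ± 0.13 with diquat, 10.18 ± 0.05 with paraquat and 7.93 ± 0.04 in medium (SD, n = 3 each). The distance from either treated group to medium was many times the spread within a group. The lowest diquat array stood 2.39 above the highest medium array and the lowest paraquat array 2.14 above it, on the log2 scale, whereas the 3 arrays of a group spanned 0.25 with diquat, 0.09 with paraquat and 0.07 in medium.

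**Figure D1:**
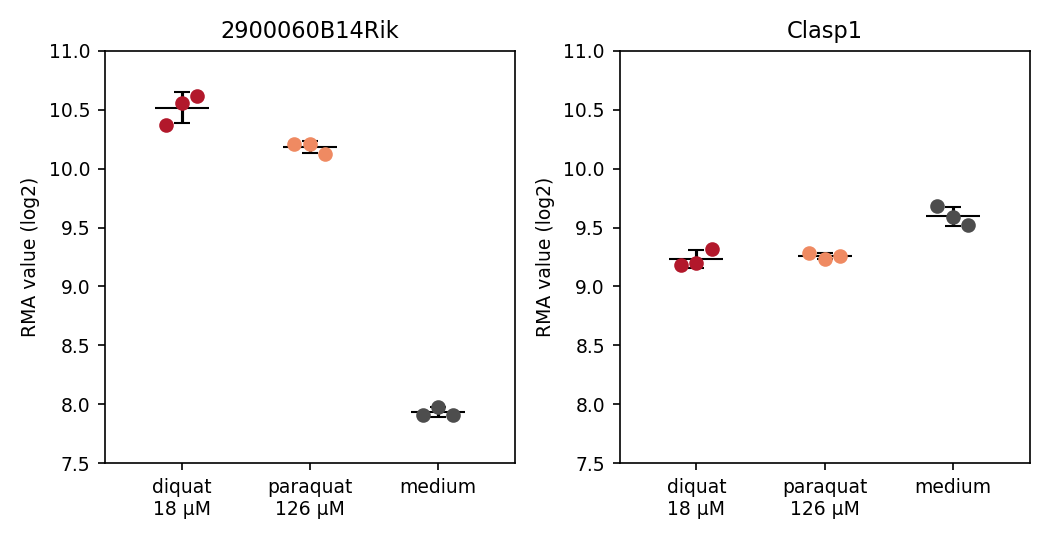
RMA values (log2, vertical axis) of 2900060B14Rik (left) and of Clasp1, whose span contains it (right), in diquat, paraquat and medium arrays. Points are arrays, long bars are means and error bars are SD (n = 3 each). The diquat and paraquat points of 2900060B14Rik lie above 10, the medium points below 8, and Clasp1 is slightly lower in treated cells.

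As fold changes, diquat cells held 5.99 times the medium level (log2 difference 2.58 ± 0.06 SE, 95% interval 2.45 to 2.72), and paraquat cells 4.75 times (2.25 ± 0.06 SE, 95% interval 2.11 to 2.38). Set against the mean of the medium arrays one by one, the diquat arrays were 5.41, 6.18 and 6.44 times as bright and the paraquat arrays 4.85, 4.85 and 4.55 times. Both comparisons use the same 3 medium arrays, so they are not independent of each other. The choice of the gene used these contrasts. For scale, limma's adjusted p called 6.52% of the 23521 features between diquat and medium (3.86% higher, 2.65% lower; higher calls were 59.3% of calls, 78.2% after centring and 45.8% after quantile normalization), and 4.4% between paraquat and medium (2.3% higher, 2.1% lower). All diquat arrays lay above all medium arrays for 10.1% of features, and all paraquat arrays above all medium arrays for 9.2%.

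The difference ranked second from the top of the 23521 features with both compounds. The feature ahead of it belongs to Slc7a11, which encodes the cystine importer that supplies glutathione synthesis, at 6.15-fold with diquat and 5.28-fold with paraquat. The feature behind it belongs to Ptgs2, the inducible cyclooxygenase of prostaglandin synthesis, at 4.89-fold and 4.42-fold. The lead of Slc7a11 over 2900060B14Rik was 0.04 with diquat and 0.15 with paraquat on the log2 scale. The standard errors were 0.06 for 2900060B14Rik and 0.08 for Slc7a11 in both comparisons, and the order of the pair was not tested. A second Slc7a11 feature gave 1.75-fold and 1.66-fold, so the features of that gene disagreed in size. The second was dim, with means of 5.36 with diquat, 5.29 with paraquat and 4.56 in medium, below the array medians.

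Behind these 3, the ranking fell away. With diquat the next features were Rnu3a, a U3 RNA that takes part in the first cuts of the ribosomal RNA precursor (3.62-fold), Snord118, the U8 RNA that acts in maturation of the large ribosomal subunit (2.76-fold), and Stc1, a secreted glycoprotein hormone (2.74-fold). With paraquat they were Rnu3a (2.76-fold), Adm2, a peptide of the calcitonin family (2.68-fold), and Plaur, the urokinase receptor (2.51-fold). In each comparison 3 features lay at least 2 log2 units higher than medium and 20 at least 1 unit higher, and 4 lay at least 1 unit lower. The 1st and 99th percentiles of all features were -0.30 and 0.44 with diquat, and -0.30 and 0.38 with paraquat.

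**Figure D2:**
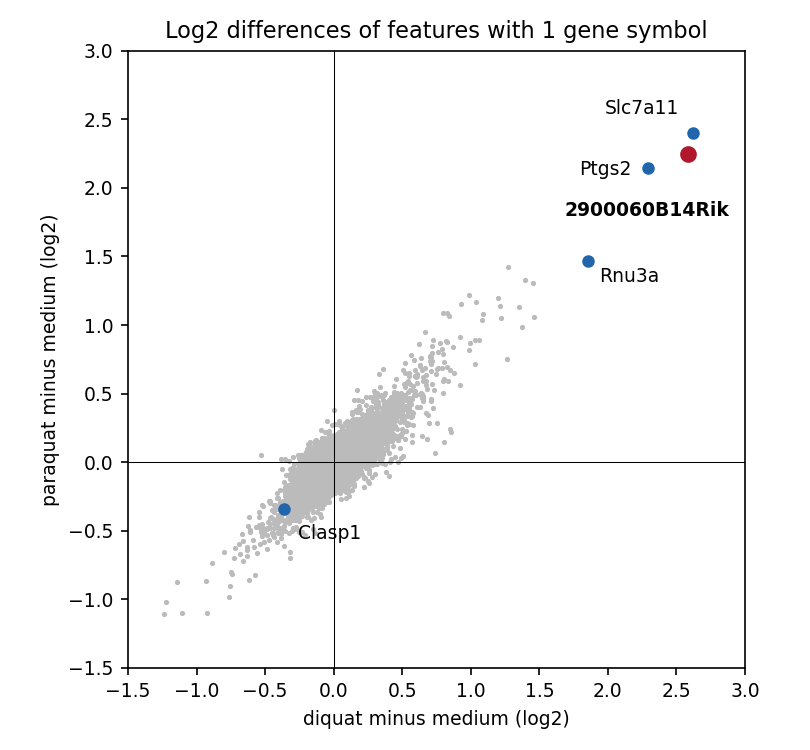
Log2 difference from medium with diquat (horizontal axis) and with paraquat (vertical axis) for the 23521 features with 1 gene symbol (grey), with 5 named features marked. 2900060B14Rik (red) sits at 2.58 and 2.25 beside Slc7a11 and Ptgs2, away from the cloud, and since both axes share the medium arrays the slope of the cloud is not a result.

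The doses of the compounds differed (18 and 126 µM), so the paraquat and diquat values are side by side and not at matched exposure. Paraquat minus diquat was -0.34 on the log2 scale (95% interval -0.47 to -0.20 for this feature alone). This put the paraquat level at 0.792 of the diquat level. The lowest diquat array was 0.16 above the highest paraquat array, a separation in this direction that 5.03% of features showed. In the direct contrast 0% of features passed limma's adjusted p, 0 of 23521, while 2487 had an unadjusted p under 0.05, and the alternative settings called 0 to 5. By paraquat minus diquat 2900060B14Rik was at rank 41 from the bottom.

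The features most like it over the 9 arrays were found by the root-mean-square difference between profiles, each expressed as log2 values minus its own medium mean. Slc7a11 was closest at 0.144, then Ptgs2 at 0.23, and the distance then rose to 0.622 for Rnu3a, 0.854 for Stc1, 0.875 for Plaur, 0.898 for Adm2, 0.959 for Snord118 and 0.967 for Csf2, which encodes a cytokine of myeloid growth. A second Csf2 feature went the other way, at -0.11 with diquat and -0.10 with paraquat, and did not pass the test. It was dim, with means of 5.20 with diquat, 5.21 with paraquat and 5.31 in medium, below the array medians. The median over the 23520 features compared was 1.99. The measure rewards similar size as well as similar shape, and since few features moved as far, it lists the features with the largest differences. When profiles were instead scaled to unit length, 2 of the 8 stayed, Slc7a11 and Stc1, and the closest was Itga2, an integrin subunit that binds collagen (2.05-fold with diquat, 1.85-fold with paraquat).

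The closest profile, that of Slc7a11, had values of 10.20, 10.29 and 10.33 with diquat. Its paraquat arrays stood at 10.12, 10.02 and 10.02 and its medium arrays at 7.71, 7.45 and 7.80. The medium arrays of Slc7a11 were thus spread more widely than those of 2900060B14Rik. Its diquat arrays all lay above its paraquat arrays, as they did for 5.03% of all features. Because these profiles were picked for likeness on the same arrays, a shared order of groups is no separate finding.

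Rnu3a, the closest noncoding RNA, had 8.43, 8.41 and 8.73 with diquat. With paraquat it had 8.26, 8.06 and 8.07 and in medium 6.68, 6.72 and 6.60. Its diquat arrays were highest and its medium arrays lowest, with no overlap, an order that its choice by likeness to 2900060B14Rik favours. Snord118 had 8.09, 7.97 and 8.12 with diquat, 7.67, 7.65 and 7.65 with paraquat, and 6.41, 6.41 and 6.97 in medium, where replicate 3 stood above the other 2.

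The 3 noncoding RNAs among these profiles were lower with paraquat than with diquat by similar amounts. Paraquat minus diquat was -0.34 for 2900060B14Rik, -0.39 for Rnu3a and -0.40 for Snord118. Among the coding genes it was -0.22 for Slc7a11 and Csf2, -0.15 for Ptgs2 and Stc1, -0.07 for Plaur and 0.15 for Adm2. None of these 9 features passed the test between the compounds, and the split into coding and noncoding was made after the values were seen. Other noncoding RNAs, described further below, did not all go this way. Paraquat minus diquat was -0.24 for Rnu12, -0.01 for Rnu11 and 0.03 for Snord73b. Among lncRNAs it was -0.17 for the Zfas1 feature that changed more, -0.21 for Gm15910 and 0.08 for 2410006H16Rik.

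**Figure D3:**
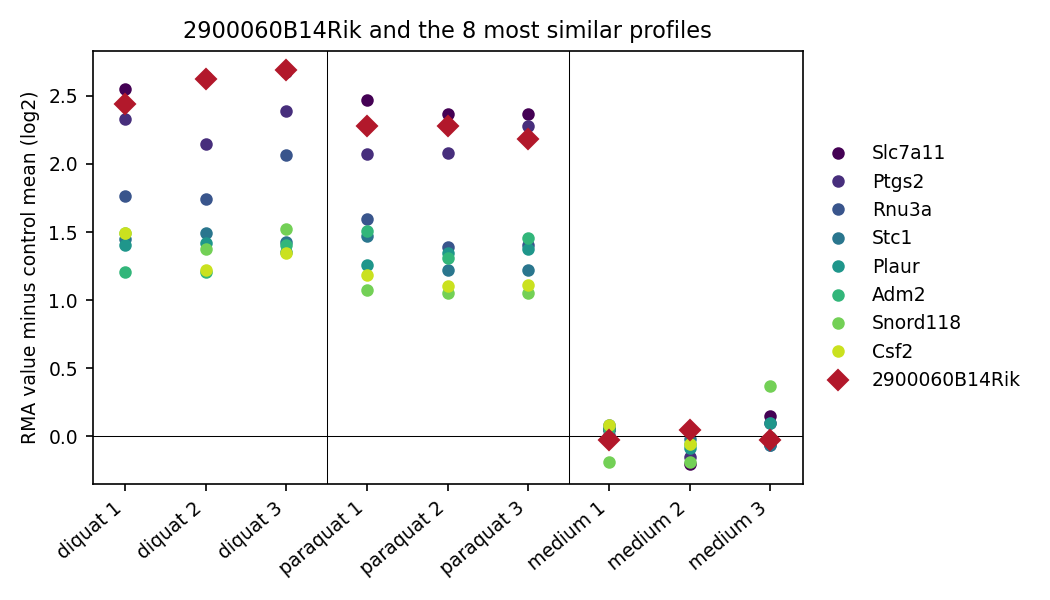
RMA value minus the medium mean (log2, vertical axis) on each array for 2900060B14Rik (red diamonds) and the 8 features with the smallest root-mean-square difference from it. Slc7a11 (partly hidden behind the diamonds) and Ptgs2 lie nearest to it on the treated arrays, and the other 6 lie lower.

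Of these 8 genes 5, all coding, have a window in the promoter table. The octamer, held by 1.75% of all windows, was in 1 of the 5, that of Slc7a11. There it starts 49 bases before the start and overlaps a C/EBP-ATF element, the site type that stress-induced ATF4 is known to bind. Of the other motifs, the CCAAT box was also in the Slc7a11 window, 216 bases before the start. The GC box was also in the windows of Ptgs2, Plaur and Csf2. AP-1 matched in that of Plaur, the antioxidant response element in that of Csf2 and the E-box in that of Ptgs2. The Slc7a11 stretch is shown because it holds the octamer, which was searched only after the sequence of 2900060B14Rik had been seen (GRCm38.p6, chr3:50443635-50443682, minus strand). Capitals mark both C/EBP-ATF matches and, joined to the second, the octamer on the opposite strand.
Slc7a11: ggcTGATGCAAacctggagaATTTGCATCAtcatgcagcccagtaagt

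The neighbours of 2900060B14Rik on chromosome 1 were not used to choose it and could be tested. Of the 10 RefSeq genes before it and the 10 after it, 5 were measured by a feature of their own, and none came near its change. Clasp1, which contains it, was lower with both compounds. Nifk, whose product binds the Ki-67 antigen, was higher with diquat. Tsn (translin, a nucleic acid binding protein), Tfcp2l1 (a transcription factor of the grainyhead family) and Gli2 (a transcription factor of hedgehog signalling) did not pass in either comparison.

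Clasp1 had 9.18, 9.20 and 9.32 with diquat. Its paraquat values were 9.28, 9.23 and 9.26 and its medium values 9.68, 9.59 and 9.52. The treated arrays all lay below the medium arrays, and the 2 compounds overlapped. The share of all features with such a separation downward was not counted. By limma's adjusted p, 2.65% of all features were lower with diquat and 2.1% with paraquat. The mean was 9.23 ± 0.08 with diquat and 9.60 ± 0.08 in medium (SD, n = 3 each), a 1.29-fold fall (log2 difference -0.36 ± 0.05 SE, limma adjusted p = 0.00251). With paraquat it was 9.26 ± 0.03 (SD, n = 3), a 1.27-fold fall (-0.34 ± 0.05 SE, limma adjusted p = 0.00439). Both calls held under all 18 alternative settings, with limma adjusted p up to 0.0193 for diquat and 0.0276 for paraquat.

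Clasp1 was thus lower where 2900060B14Rik, inside its span, was higher. Whether probes of one gene pick up RNA of the other was not tested. The deposited table does not list probe positions, and the labels do not say how strand was treated.

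Nifk stood at 10.27 ± 0.03 with diquat, 10.20 ± 0.02 with paraquat and 10.11 ± 0.01 in medium (SD, n = 3 each). Its log2 difference was 0.16 ± 0.03 SE with diquat (limma adjusted p = 0.0183) and 0.09 ± 0.03 SE with paraquat (limma adjusted p = 0.189). The diquat call was lost when any 1 of the 3 medium arrays was left out. For Tsn the differences were -0.12 and -0.12, for Tfcp2l1 -0.22 and -0.19, and for Gli2 -0.05 and -0.02, with diquat and paraquat in that order. In all, 1 of 5 neighbours was higher and 1 lower with diquat, and 0 higher and 1 lower with paraquat, too few to set against the 6.52% and 4.4% of all features. After quantile normalization 3 of the 5 were called with diquat, 1 higher and 2 lower.

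**Figure D4:**
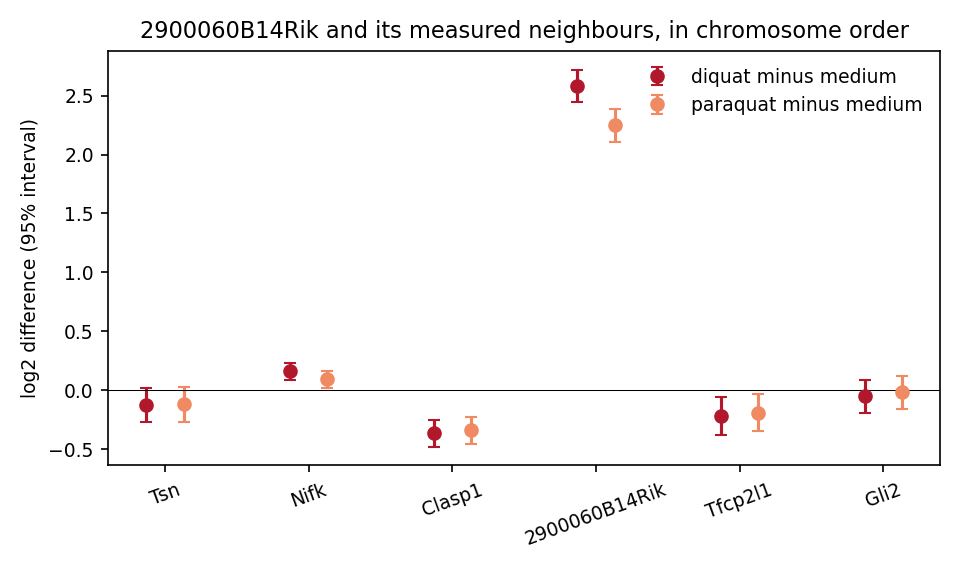
Log2 difference from medium with 95% intervals (vertical axis) for 2900060B14Rik and the 5 measured genes among its 20 neighbours, left to right in chromosome order, with diquat and paraquat side by side. The neighbours lie between -0.36 and 0.16, and 2900060B14Rik stands at 2.58 and 2.25.

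Of 1973 features whose gene is an lncRNA in RefSeq, 2900060B14Rik included, 24 were higher and 10 lower with diquat by limma's adjusted p, or 1.72% against 6.52% of all features. With paraquat 19 were higher and 5 lower, or 1.22% against 4.4%. Among the other 1972 features 23 were higher and 10 lower with diquat, and 18 higher and 5 lower with paraquat. With dim features filtered out, 39 of 294 lncRNA features were called with diquat, beside 1954 of all 11761 features left, and 28 of 294 with paraquat, beside 1342 of 11761. The difference in share between lncRNAs and all features was not tested. The diquat calls split into 34 higher and 2 lower after centring, 32 and 7 after quantile normalization, and 25 and 21 with array weights. The median log2 difference of the class was -0.02 with diquat and 0.00 with paraquat, and over all features it was -0.02 and 0.00. The diquat count moved with single arrays: it was 21, 17 and 22 without medium replicate 1, 2 or 3, and 82 without diquat replicate 2, of which 29 were higher. The paraquat count was 14 and 13 without paraquat replicate 2 or 3.

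2900060B14Rik was the one lncRNA feature at least 2-fold higher with either compound. The next was Zfas1, a host of small nucleolar RNAs, at 1.98-fold with diquat and 1.76-fold with paraquat, while its other feature gave 1.41-fold and 1.31-fold. After it with diquat came 1 feature each of Snhg17 (1.57-fold and 1.54-fold), Gm15910 (1.57-fold and 1.36-fold) and 2410006H16Rik (1.55-fold and 1.64-fold). A second Snhg17 feature gave 1.335-fold and 1.379-fold. The lowest were Eprn with diquat (1.45-fold lower) and Gm17753 with paraquat (1.40-fold lower, limma adjusted p = 0.0622). These 6 genes were named after their values were seen, as the extremes of the class.

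**Figure D5:**
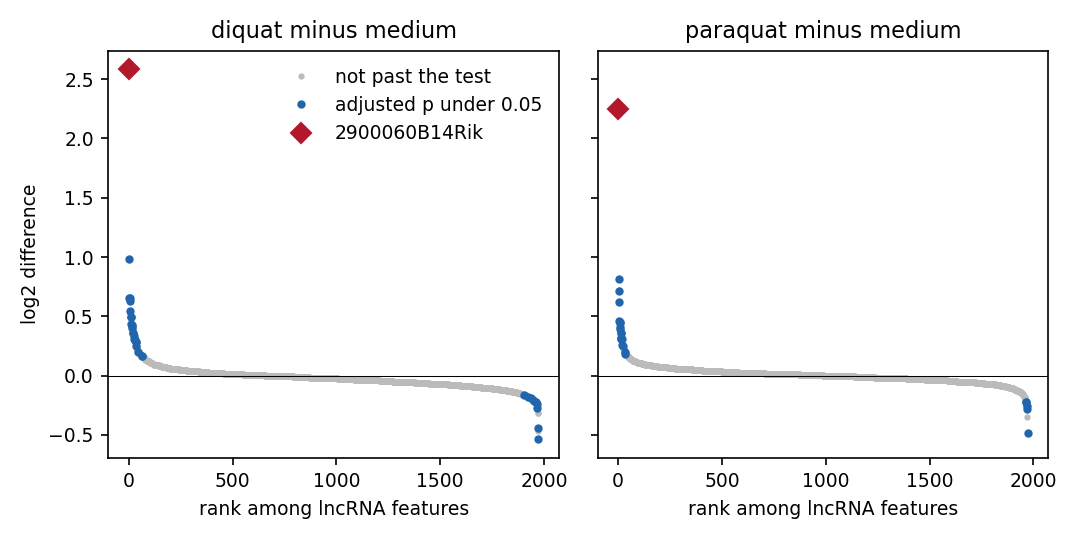
Log2 difference from medium (vertical axis) of the 1973 lncRNA features in rank order, with diquat on the left and paraquat on the right. Blue points passed limma's adjusted p, grey points did not, and 2900060B14Rik (red) stands at the left end at 2.58 and 2.25, and the second feature, Zfas1, at 0.99 and 0.82.

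Among 12 well-known lncRNAs listed regardless of their change, 8 were measured, by 9 features. Of these features 1 was higher and 0 lower in each comparison, where 3.86% of all features were higher with diquat and 2.3% with paraquat. Snhg1, a host of small nucleolar RNAs, was 1.26-fold higher under diquat and 1.24-fold higher under paraquat (limma adjusted p = 0.00832 and 0.0138). Neat1, the scaffold RNA of paraspeckles, had log2 differences of -0.19 and -0.14, short of the threshold. Malat1, a nuclear speckle RNA, had 2 features that disagreed in size, 0.52 and 0.05 with diquat and 0.72 and -0.05 with paraquat, none past the test. Meg3, Snhg12, Kcnq1ot1, Pvt1 and Epb41l4aos lay between -0.09 and 0.23 in both comparisons and did not pass.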

How the data were processed

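Expression was measured on Affymetrix Mouse Gene ST arrays. The authors deposited log2 values made with Affymetrix Expression Console 1.1 and RMA per the submitters' processing notes. RMA corrects background, normalizes by quantiles and summarizes probes, which can shrink large ratios, and its settings are not stated in any label used. Values have 2 decimals and no detection calls, and precision is limited by how few arrays there are. Groups and replicate numbers come from the sample titles. The description fields instead number all 3 diquat arrays and all 3 paraquat arrays as replicate 1, so the labels leave their independence unsettled.

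Features were named from the platform annotation: 23521 had 1 symbol, 1814 several and 9137 none. Of the 23521, 23328 matched RefSeq (GRCm38.p6) by Entrez identifier, which gave the class of each gene. The build behind the array design is not given, so coordinates are RefSeq's own. All 9 arrays entered 1 limma 3.58.1 fit (R 4.3.3; lmFit, eBayes), 1 mean per group, with Benjamini-Hochberg adjustment over the 23521 features and a threshold of 0.05. Intervals are 95% from that fit. The fit was tested on simulated data.

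The gene and all lists were chosen with earlier results of these data known. Named genes are the gene, 10 RefSeq neighbours on each side, the 8 most similar profiles, up to 4 features on either side in each ranking, 12 lncRNAs and the cell markers. The small nuclear RNA list and the octamer were added after the values were seen. Alternatives covered the replicate block, a filter on dim features, eBayes with trend and robust settings, centring, quantile normalization, the 2 groups alone, 1 feature per gene, all features, array weights and leaving out each array.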

Additional observations from a re-analysis of the deposited data

How the results depend on the processing

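The log2 difference of 2900060B14Rik kept its direction in all 18 alternatives, from 2.53 to 2.66 with diquat, 2.23 to 2.28 with paraquat and -0.41 to -0.28 between the compounds. Leave-one-out ranges were 2.53 to 2.66, 2.23 to 2.28 and -0.41 to -0.285. Its rank from the top was second in 16 alternatives and first in 2 with diquat (without medium replicate 2, and without diquat replicate 1), and second in all 18 with paraquat. Without diquat replicate 3 the diquat difference was 2.53.

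Counts of called features moved more. With the 2 groups alone, diquat calls were 915 against 1533, and 18 (16 higher, 2 lower) against 34 lncRNA features. With array weights, paraquat calls were 1647 against 1035, and 37 against 24 lncRNA features. Between the compounds 0 features passed, but 1 after centring, 4 with the filter and 5 after quantile normalization. Leaving out 1 array gave 773 to 1899 calls with diquat, 560 to 1230 with paraquat, 0 to 3 between the compounds, 17 to 82 and 13 to 27 lncRNA features, and 1 to 2 neighbours with diquat. Diquat calls were 879, 773 and 969 without medium replicate 1, 2 or 3. Paraquat calls were 589, 560 and 664 without these, and 577 and 573 without paraquat replicate 2 or 3. Higher calls made up 59.3% of diquat calls as deposited, 78.2% after centring and 45.8% after quantile normalization. The cause was not tested.

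With the replicate block, 1391 and 937 features passed for diquat and paraquat, and the values of 2900060B14Rik were the same. The numbers were not taken as pairs: correlations of same-numbered deviations ran from -0.195 to 0.195, with 3 of 9 above 0.1. Of 18 comparisons 8 were best with their own number. Between paraquat and medium every array was, at 0.159, 0.128 and 0.087, a hint from the data and not from the design. With no detection calls, dim features cannot be told from background.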

Other observations

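Small nuclear RNAs, a class of short noncoding RNAs that mostly serve in splicing and in RNA processing, were listed after the values had been seen, among them Rnu3a, one of the profiles most like that of 2900060B14Rik. RefSeq classes 7 features so, and they are given as values with no test. Rnu12, the U12 RNA of the minor spliceosome, had 9.28, 9.37 and 9.33 with diquat, 9.07, 9.07 and 9.12 with paraquat, and 8.67, 8.41 and 8.40 in medium. This is 1.78-fold and 1.51-fold over medium, with the 3 groups in the same order as for 2900060B14Rik and no overlap. Over all features, 10.1% had all diquat arrays above all medium arrays and 9.2% had all paraquat arrays above them. All diquat arrays lay above all paraquat arrays for 5.03%. A link between Rnu12 and 2900060B14Rik was not tested. Rnu11, the U11 RNA of the same spliceosome, was 1.34-fold and 1.33-fold over medium, and here the diquat and paraquat arrays overlapped. Rnu3a stood at 3.62-fold and 2.76-fold.

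The remaining 4 features varied. Both features of Rn7sk, the 7SK RNA that restrains transcription elongation, lay within 0.04 log2 units of medium with either compound, near the top of the table's range. Rnu5g, a variant of the U5 spliceosomal RNA, lay at 4.38 with diquat, 4.36 with paraquat and 4.31 in medium, close to the table's lowest value. Snord73b has the symbol of a small nucleolar RNA, although RefSeq classes it here. It ran from 9.81 to 11.39 within the diquat arrays alone, wider than its difference from medium (0.79 on the log2 scale). Its paraquat arrays, at 11.03, 10.84 and 10.51, all lay above its medium arrays, at 9.60, 10.17 and 10.14, or 1.77-fold. None of these RNAs has a window in the promoter table, so the octamer was not searched in them.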
